A study of Danio rerio with 6 samples.

Results

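Twist1 and a small set of skeletogenic crest genes (twist1a, twist1b, sox9a, barx1 and col2a1a) were followed in zebrafish neural crest (NC) cells sorted by the activity of a Wnt reporter. The 5 genes were chosen by name and matched by their Ensembl identifiers, ENSDARG00000030402, ENSDARG00000076010, ENSDARG00000003293, ENSDARG00000007407 and ENSDARG00000069093, and are 5 of the 32057 genes in the expression table. The 2 populations were high-Wnt cells, with high nuclear mCherry, and low-Wnt cells, with low mCherry, and the comparison asks which genes differ between NC cells that are or are not responding to Wnt. Each had 3 libraries made by Smart-seq2, a method that copies whole transcripts into cDNA from small amounts of RNA. Cells of both populations came from embryos at 24 h post fertilization (hpf) that carried both Tg(7XTCF:nls-mCherry)ia5, in which TCF binding sites drive nuclear mCherry, and Tg(-7.2sox10:EGFP)ir937, in which a sox10 promoter fragment drives EGFP. Both populations were thus defined by fluorescent proteins and not by position or fate, and the sources used here do not say whether the libraries of a population came from separate clutches. The p-values measure the spread between these libraries, which may be technical.

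NC cells of the head give rise to neurons, glia and pigment cells and also to ectomesenchyme, the mesenchyme that fills the pharyngeal arches and forms the cartilage and bone of the face. Twist1 proteins are basic helix-loop-helix transcription factors needed for crest cells to take up the ectomesenchymal fate. Zebrafish carry the paralogs twist1a and twist1b. Sox9 proteins are HMG-box transcription factors that start the cartilage program and activate the type II collagen gene directly. Barx1 is a homeodomain factor of the arch mesenchyme that promotes cartilage condensations. Col2a1 encodes type II collagen, the main fibrillar collagen of cartilage, which is also made by the notochord and the ear.

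Values are TPM, the abundance of a gene's transcripts corrected for their length and scaled to the same total in each library. Low-Wnt replicate 3 stood apart from the other libraries. It had 9230 genes at 1 TPM or more, against 14283 to 14417 in the high-Wnt libraries and 13481 and 13791 in low-Wnt replicates 1 and 2, and it lay below the mean of those replicates for 82.6% of the tested genes. Test results are therefore given with all 6 libraries and without low-Wnt replicate 3. The NC markers sox10, foxd3 and crestin were present in every library: sox10 had 243.7, 342.7 and 310.0 TPM in high-Wnt cells, against 258.6, 239.6 and 72.9 TPM in low-Wnt cells.

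All 5 genes had a higher mean in high-Wnt cells. They were tested with limma on log2(TPM + 1), with Benjamini-Hochberg adjustment over the 14163 genes that passed a filter of 1 TPM in at least 3 libraries, which all 5 passed. With all 6 libraries, 0 of the 5 had an adjusted p under 0.05, where 0.261% of tested genes were called higher in high-Wnt cells and 0.367% in either direction. At an unadjusted p under 0.05, 3 of the 5 (twist1b, sox9a and col2a1a) were higher, as were 11.7% of tested genes. When low-Wnt replicate 3 was left out, 5 of 5 were higher at an adjusted p under 0.05, against 7.17% of the 15000 genes then tested (12.7% in either direction). Every high-Wnt library lay above every low-Wnt library for 4 of the 5 with all 6 libraries (22.4% of tested genes) and for 5 of 5 without low-Wnt replicate 3 (25.1%).

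**Figure D1:**
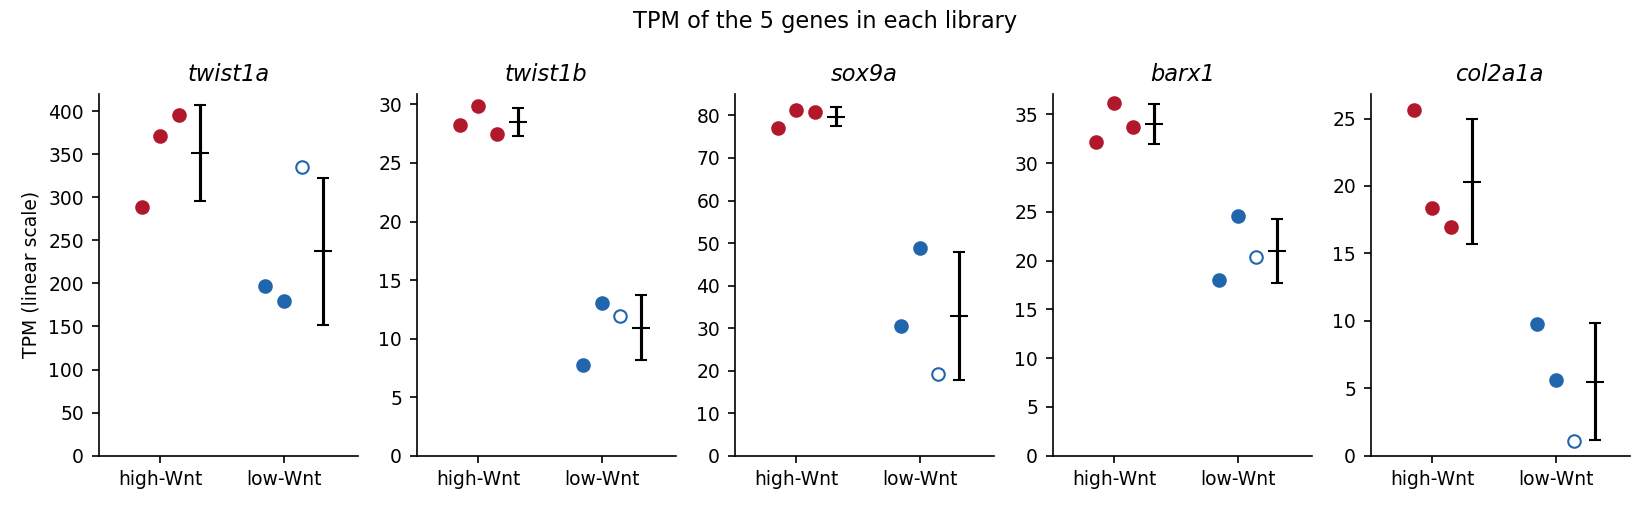
TPM (vertical axis, linear, from 0) of the 5 genes in each library, with high-Wnt libraries in red and low-Wnt libraries in blue; black marks give the mean ± SD of 3 libraries and the open circle is low-Wnt replicate 3. In twist1a the open circle, at 335.6 TPM, lies among the high-Wnt libraries, whereas in sox9a and col2a1a it is the lowest point.

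twist1a was the most abundant of the 5 genes. It had 288.8, 370.6 and 395.9 TPM in high-Wnt cells, against 196.7, 180.1 and 335.6 TPM in low-Wnt cells. Low-Wnt replicate 3 lay above high-Wnt replicate 1, so the groups overlapped, while low-Wnt replicates 1 and 2 lay below every high-Wnt library. The means were 351.8 ± 56.0 TPM in high-Wnt cells and 237.5 ± 85.4 TPM in low-Wnt cells (SD, n = 3 each), a 1.48-fold difference. The log2 fold change was 0.61 (SE 0.31, limma adjusted p = 0.410), and its 95% interval of -0.09 to 1.31 includes 0. Leaving out low-Wnt replicate 3 gave a log2 fold change of 0.89 (SE 0.16, limma adjusted p = 0.0134), with an interval of 0.52 to 1.25.

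twist1b was present at a much lower level. It had 28.2, 29.8 and 27.5 TPM in high-Wnt cells, against 7.78, 13.0 and 11.9 TPM in low-Wnt cells. The groups did not overlap, and low-Wnt replicate 3 fell between the other low-Wnt libraries. The mean was 28.5 ± 1.21 TPM in high-Wnt cells and 10.9 ± 2.77 TPM in low-Wnt cells, 2.61-fold apart (SD, n = 3 each). The log2 fold change was 1.34 (SE 0.39, limma adjusted p = 0.178) with all libraries and 1.41 (SE 0.22, limma adjusted p = 0.00922) without low-Wnt replicate 3. Leaving out that library thus changed the size of the difference little and its standard error more.

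Within each library, twist1a made up most of the summed twist1 TPM. Its share was 91.1%, 92.6% and 93.5% in high-Wnt cells, against 96.2%, 93.2% and 96.6% in low-Wnt cells. As a ratio, twist1a had 10.2, 12.4 and 14.4 times the TPM of twist1b in high-Wnt cells, against 25.3, 13.8 and 28.1 times in low-Wnt cells. Low-Wnt replicate 2 fell within the high-Wnt range, and the other low-Wnt libraries lay above it. The log2 ratio averaged 3.57 ± 0.25 in high-Wnt cells, against 4.29 ± 0.53 in low-Wnt cells, a difference of -0.73 (SD, n = 3 each; two-sided exact permutation test, p = 0.2, where 0.1 is the smallest p that 3 against 3 libraries allow). The difference was -0.52 without low-Wnt replicate 3 (exact permutation p = 0.3, smallest possible 0.1). A difference between the paralogs in their fold change was not shown. RSEM divides reads that fit more than 1 gene by estimate, so some reads could have been exchanged between such paralogs.

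**Figure D2:**
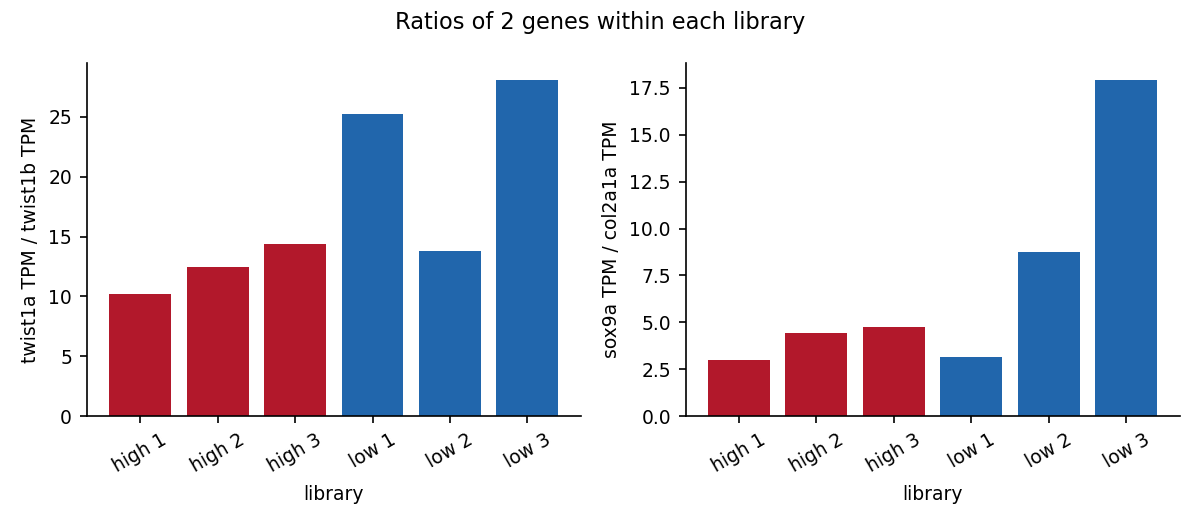
Ratio of twist1a TPM to twist1b TPM (left) and of sox9a TPM to col2a1a TPM (right) within each library, high-Wnt libraries in red and low-Wnt libraries in blue. Both ratios are highest in low-Wnt replicate 3, at 28.1 and 17.9, and in each panel 1 other low-Wnt library lies inside the high-Wnt range.

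The other Twist family genes were read beside them. twist3 had 36.7, 34.8 and 38.0 TPM in high-Wnt cells, against 9.9, 12.6 and 18.5 TPM in low-Wnt cells, again without overlap. It exceeded twist1b in every high-Wnt library, and its log2 fold change was 1.40 (limma adjusted p = 0.160) with all libraries and 1.62 (limma adjusted p = 0.00195) without low-Wnt replicate 3. twist2 was near the filter of 1 TPM, with 1.09, 1.23 and 1.90 TPM in high-Wnt cells, against 0.61, 0.89 and 0.07 TPM in low-Wnt cells. It passed that filter through the high-Wnt libraries alone, so its direction was set by the filter. With all libraries 0 of the 4 family members had a limma adjusted p under 0.05, and 2 were higher at an unadjusted p under 0.05, where 11.7% of tested genes were. In the fit without low-Wnt replicate 3, 3 of the 4 were higher, where 7.17% of all genes were. With twist1a and twist1b taken off the list, 1 of 2 was higher, namely twist3. In that fit twist2 was at 0.45 (limma adjusted p = 0.359), against 0.68 (adjusted p = 0.375) with all libraries.

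sox9a varied very little among high-Wnt libraries. It had 77.1, 81.2 and 80.7 TPM in high-Wnt cells, against 30.5, 48.9 and 19.2 TPM in low-Wnt cells. The lowest high-Wnt library lay well above the highest low-Wnt library, and low-Wnt replicate 3 was the lowest of all. The mean was 79.7 ± 2.27 TPM in high-Wnt cells and 32.9 ± 15.02 TPM in low-Wnt cells, 2.42-fold apart (SD, n = 3 each). The log2 fold change was 1.35 (SE 0.40, limma adjusted p = 0.179) with all libraries and 1.02 (SE 0.20, limma adjusted p = 0.0181) without low-Wnt replicate 3.

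The annotation listed a second gene under the symbol SOX9 (ENSDARG00000043923), and the paralog it stands for was not told apart by that symbol. It had 7.63, 7.67 and 5.43 TPM in high-Wnt cells, against 4.01, 0.63 and 0.52 TPM in low-Wnt cells. The groups again did not overlap, the level lay far below that of sox9a in every library, and the log2 fold change was 1.76 (limma adjusted p = 0.216) with all libraries and 1.46 (limma adjusted p = 0.0711) without low-Wnt replicate 3.

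barx1 showed the most even levels of the 5 genes across low-Wnt libraries. It had 32.1, 36.2 and 33.7 TPM in high-Wnt cells, against 18.0, 24.5 and 20.4 TPM in low-Wnt cells. The groups did not overlap. The mean was 34.0 ± 2.05 TPM in high-Wnt cells and 21.0 ± 3.31 TPM in low-Wnt cells, 1.62-fold apart (SD, n = 3 each). The log2 fold change was 0.68 (SE 0.35, 95% interval -0.11 to 1.48, limma adjusted p = 0.415) with all libraries and 0.67 (SE 0.18, limma adjusted p = 0.0473) without low-Wnt replicate 3. This was the call nearest to the threshold, and it was lost when each library was also centred on its median (log2 fold change 0.61, limma adjusted p = 0.0641).

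col2a1a, the matrix gene of the set, had the largest fold change of the 5 with all libraries. It had 25.6, 18.4 and 17.0 TPM in high-Wnt cells, against 9.74, 5.60 and 1.07 TPM in low-Wnt cells. The groups did not overlap, but low-Wnt replicate 3 held only 14.0% of the mean of low-Wnt replicates 1 and 2. The mean was 20.3 ± 4.64 TPM in high-Wnt cells and 5.47 ± 4.34 TPM in low-Wnt cells, 3.72-fold apart, or 2.65-fold without low-Wnt replicate 3. The log2 fold change was 1.99 (SE 0.65, limma adjusted p = 0.223) with all libraries and 1.32 (SE 0.27, limma adjusted p = 0.0224) without that library.

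The regulator sox9a and its collagen target were set against each other within libraries. sox9a had 3.01, 4.42 and 4.76 times the TPM of col2a1a in high-Wnt cells, against 3.13, 8.74 and 17.9 times in low-Wnt cells. Low-Wnt replicate 1 fell within the high-Wnt range. The log2 ratio differed by -0.65 (exact permutation p = 0.3, smallest possible 0.1) and, without low-Wnt replicate 3, by -0.30 (exact permutation p = 0.8). A difference in the ratio was therefore not shown, and leaving out low-Wnt replicate 3 reduced it by more than 1.5 times.

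**Figure D3:**
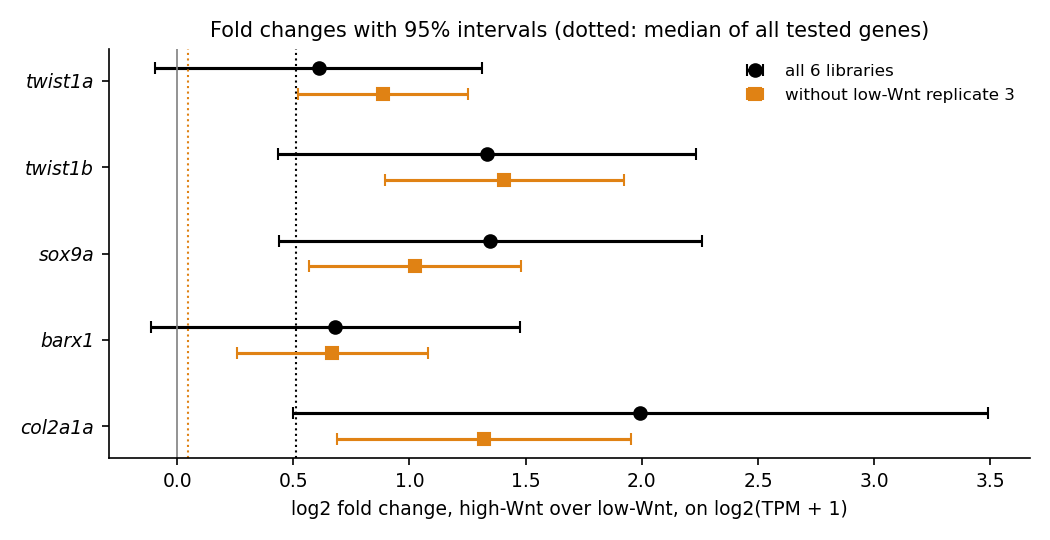
log2 fold change of high-Wnt over low-Wnt cells on the log2(TPM + 1) scale (horizontal axis) for the 5 genes, with 95% limma intervals, from all 6 libraries (black circles) and without low-Wnt replicate 3 (orange squares); dotted lines give the median of all tested genes in each fit. Intervals narrow without low-Wnt replicate 3, and the median of all genes moves to 0.05, against 0.51 with all 6 libraries.

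The general shift of low-Wnt replicate 3 bears on the size of each difference. With all 6 libraries the median tested gene had a log2 fold change of 0.51, and 78.4% of genes had a positive value, as did all 5 genes here. Relative to that median, twist1a and barx1 were close to the typical gene, at the 56.3rd and 60.9th percentiles, while twist1b, sox9a and col2a1a were at the 91.7th, 92.0th and 98.7th. When that library was left out the median was 0.05 and 53.3% of genes had a positive value, and the 5 genes lay between the 83.1st percentile (barx1) and the 96.4th (twist1b). When each library was centred on its median, the log2 fold change of twist1a was 0.01 and that of barx1 0.09. In that fit twist1b was at 0.74, sox9a at 0.75 and col2a1a at 1.40. After quantile normalization twist1a was at 0.66 (87.4th percentile), twist1b at 0.94, sox9a at 1.14, barx1 at 0.40 and col2a1a at 1.46. These normalizations thus differed most for twist1a, and none of the 5 genes had a limma adjusted p under 0.05 in either.

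Against low-Wnt replicates 1 and 2, the 5 genes did not follow that shift in one way. The median tested gene had a log2 ratio of -1.23 in low-Wnt replicate 3 over the mean of the other low-Wnt libraries. sox9a, at -1.01 (56.8th percentile), was near that value, and col2a1a, at -2.07 (25.1st percentile), was below it. barx1 (-0.06) and twist1b (0.18) kept nearly the level of the other low-Wnt libraries, and twist1a, at 0.83, was at the 96.9th percentile. By rank within a library, where 1 is the most abundant gene, twist1b was at 3228 in low-Wnt replicate 3, against 3376 to 3436 in high-Wnt cells, and barx1 at 2491, against 2904 to 3113. In low-Wnt replicates 1 and 2, twist1b was at 7398 and 5639 and barx1 at 4811 and 3885, beyond the high-Wnt ranges. For these genes the separation of the groups thus held on the TPM scale, and by rank it failed in low-Wnt replicate 3 alone. The genes sox9a (1418 to 1510 in high-Wnt cells, 2327 to 3377 in low-Wnt cells) and col2a1a (3704 to 4758 in high-Wnt cells, 6674 to 8992 in low-Wnt cells) were separated on both. A rank depends on how many genes a library detects. Low-Wnt replicate 3 had 9230 genes at 1 TPM or more, against 13481 to 14417 in the others, so its ranks are not directly comparable.

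**Figure D4:**
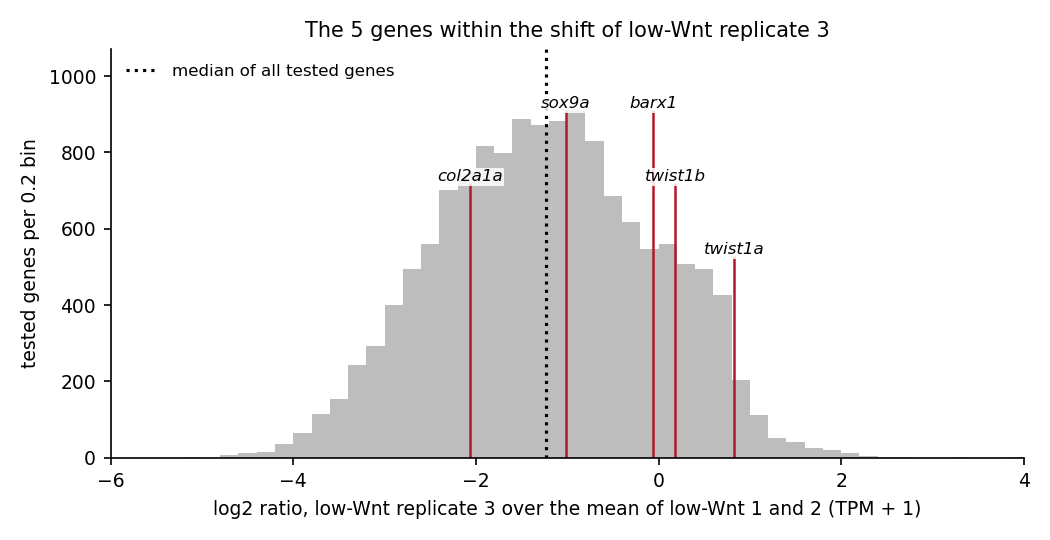
Distribution over tested genes of the log2 ratio of low-Wnt replicate 3 to the mean of low-Wnt replicates 1 and 2, on TPM + 1 (horizontal axis, bins of 0.2; vertical axis, number of genes), with the 5 genes as red lines and the median as a dotted line. The median is at -1.23, col2a1a lies to its left at -2.07, and twist1a lies far to its right at 0.83.

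Per length, the order of the levels was the same in every high-Wnt library: twist1a, sox9a, barx1, twist1b and col2a1a. The ranges of neighbouring genes in that order did not overlap among high-Wnt libraries. In low-Wnt cells the order held in replicate 2 alone. In low-Wnt replicate 1, col2a1a (9.74 TPM) lay above twist1b (7.78 TPM), and in low-Wnt replicate 3, barx1 (20.4 TPM) lay above sox9a (19.2 TPM). The 5 genes together held 451.8, 536.3 and 554.8 TPM in high-Wnt cells, against 262.7, 272.2 and 388.2 TPM in low-Wnt cells, most of it twist1a.

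Cartilage matrix genes, col2a1a among them, were read from a list of 19 symbols, of which 18 were matched and 14 genes passed the filter. With all 6 libraries 0 of the 14 had a limma adjusted p under 0.05, and 7 were higher at an unadjusted p under 0.05 (11.7% of tested genes). Of these 7, epyc and COL11A2 passed the filter through the high-Wnt libraries alone, so their direction was set by the filter. The median log2 fold change of the 14 was 1.26, against 0.51 for all tested genes. In the fit without low-Wnt replicate 3, 8 of 14 were higher, epyc among them, and 0 lower, where 7.17% of all genes were higher. The median in that fit was 0.88, against 0.05 for all genes. With col2a1a taken off the list, 7 of 13 were higher in that fit, and the median was 0.79 (1.19 with all 6 libraries). The list's summed level was 191.1 to 213.0 TPM in high-Wnt cells, against 124.6 to 132.9 TPM in low-Wnt replicates 1 and 2 and 31.7 TPM in low-Wnt replicate 3.

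Among them, col9a1b, a type IX collagen chain found on cartilage fibrils, had 16.2, 17.7 and 14.99 TPM in high-Wnt cells, against 4.63, 1.61 and 0.44 TPM in low-Wnt cells. epyc, a small leucine-rich proteoglycan of cartilage, had 2.90, 2.77 and 2.15 TPM in high-Wnt cells, against 0.05, 0.19 and 0.06 TPM in low-Wnt cells. Neither gene overlapped between the groups. As epyc passed the filter of 1 TPM through the high-Wnt libraries alone, its direction and its lack of overlap were set by the filter. Their log2 fold changes without low-Wnt replicate 3 were 2.17 (limma adjusted p = 0.00775) for col9a1b and 1.68 (limma adjusted p = 0.0122) for epyc. With all libraries they were 2.64 (limma adjusted p = 0.102) and 1.71 (limma adjusted p = 0.0526) for the genes in that order. The other genes that were higher without low-Wnt replicate 3 were col2a1a, HAPLN1 (1.23, against 1.32 with all libraries) and hapln1a (0.74, against 1.77), which link hyaluronan to proteoglycans, col9a3 (1.05, against 1.53), COL9A2 (0.79, against 1.55) and cnmd (0.96, against 0.79), which encodes chondromodulin.

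The log2 fold changes of the other collagen genes were spread widely. The gene listed as COL2A1 (ENSDARG00000011407), a second type II collagen gene, had 41.0, 32.8 and 30.2 TPM in high-Wnt cells, against 26.9, 29.3 and 5.21 TPM in low-Wnt cells. Only low-Wnt replicate 3 stood well below the rest, and without it the log2 fold change was 0.29 (limma adjusted p = 0.307), against 1.03 (adjusted p = 0.482) with all libraries. COL11A2 was at 0.98 and col11a1b at 0.62 without low-Wnt replicate 3, against 0.99 and 1.19 with all libraries. COL9A1 was at -0.15, COL11A1 at -0.01 and MATN4, a matrix adaptor protein gene, at -0.10 in the fit without that library, against 0.60, 0.67 and 0.80 with all libraries, so their sign turned with it. None of these 6 matrix genes had a limma adjusted p under 0.05 in either fit. The genes for the cartilage proteoglycan aggrecan, acana and acanb, and the genes MATN1 and ucmaa did not pass the filter.

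**Figure D5:**
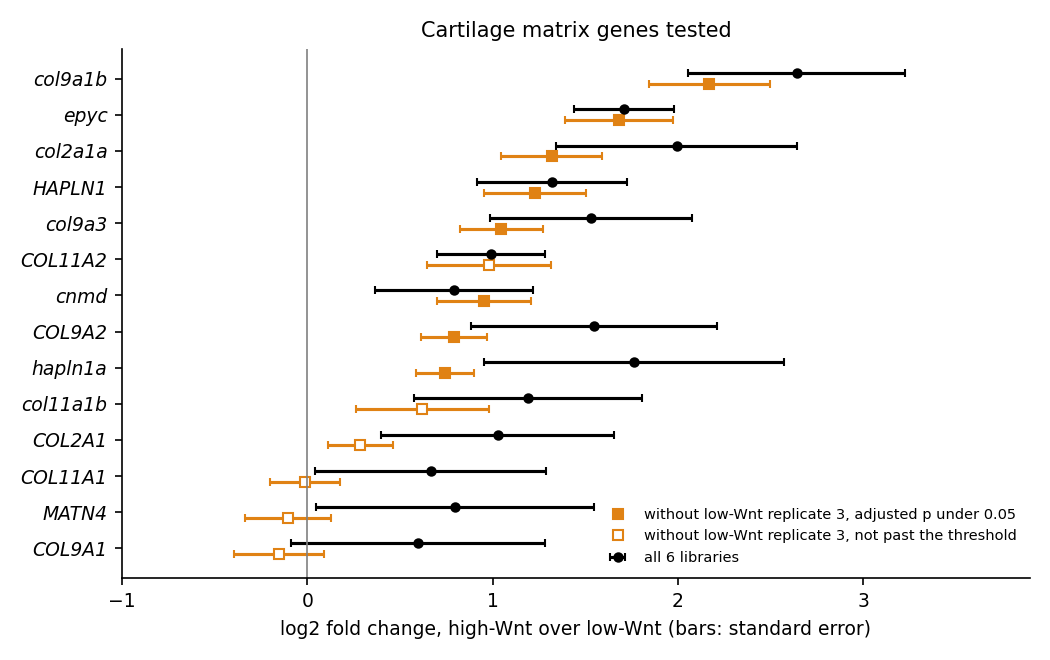
log2 fold change of high-Wnt over low-Wnt cells (horizontal axis, bars are standard errors) for the 14 cartilage matrix genes that passed the filter, from all 6 libraries (black) and without low-Wnt replicate 3 (orange, filled where the limma adjusted p is under 0.05). Of the orange squares 8 are filled, from 0.74 for hapln1a to 2.17 for col9a1b, and COL9A1, MATN4 and COL11A1 lie just left of 0.

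Among chondrogenic regulators, 14 of 15 symbols were matched and 12 genes were tested. With all libraries 0 had a limma adjusted p under 0.05 and 3 were higher at an unadjusted p under 0.05 (11.7% of tested genes). Of these 3, RUNX3 passed the filter through the high-Wnt libraries alone, so its direction was set by the filter. When low-Wnt replicate 3 was left out, 2 of the 12 were higher (7.17% of all genes), and these were sox9a and barx1 themselves. In the same fit 1 was lower (5.57% of all genes). This gene, foxf2a, a forkhead factor of arch mesenchyme, had 6.04, 5.58 and 5.66 TPM in high-Wnt cells, against 13.5, 9.51 and 1.56 TPM in low-Wnt cells (log2 fold change -0.87, limma adjusted p = 0.0466, against -0.11 and 0.934 with all libraries). SOX5 and SOX6, partners of Sox9 in cartilage, were at -0.02 and -0.50 without low-Wnt replicate 3, against 1.22 and 0.09 with all libraries, and neither had a limma adjusted p under 0.05 in either fit. Leaving out that library thus turned the sign of both. The median of the list was 0.45 without it, against 0.05 for all tested genes, and 0.75 with all libraries, against 0.51. With sox9a and barx1 taken off the list, 0 of 10 were higher and 1 lower without low-Wnt replicate 3, and 5 had a positive value. The median of those 10 was 0.18 in that fit and 0.73 with all libraries. The bone regulator genes RUNX2 and SP7 did not pass the filter.

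Ectomesenchyme genes gave 18 tested genes from 16 symbols, since dlx2a and alx4a each matched 2 genes listed under 1 symbol. With all libraries 0 had a limma adjusted p under 0.05 and 4 were higher at an unadjusted p under 0.05 (11.7% of tested genes). Without low-Wnt replicate 3, 3 of 18 were higher, where 7.17% of all genes were: 1 of the genes listed as PRRX1 (ENSDARG00000042027), a homeobox factor of limb and facial mesenchyme, ALX1, a homeobox factor of frontonasal crest, and DLX3, a homeobox factor of arch patterning. PRRX1 (ENSDARG00000042027) had 51.9, 63.5 and 50.9 TPM in high-Wnt cells, against 27.3, 19.2 and 4.12 TPM in low-Wnt cells, with a log2 fold change of 1.23 (limma adjusted p = 0.00896) without low-Wnt replicate 3 and 1.97 (limma adjusted p = 0.212) with all libraries. ALX1 was at 1.14 and DLX3 at 0.63 without that library, against 1.69 and 0.91 with all libraries. The gene listed under the symbol PRRX1 as ENSDARG00000033971 was at -0.12 (limma adjusted p = 0.591) without low-Wnt replicate 3, against 0.62 (limma adjusted p = 0.609) with all libraries, so its sign turned. Of the 18, 13 had a positive value without that library (53.3% of all genes), and 0 were called lower (5.57%). Also below 0 were DLX2 (ENSDARG00000017174) at -0.74, msx1a at -0.21, DLX5 at -0.15 and msx1b at -0.07. With all libraries they were at -0.47, -0.26, -0.19 and 0.08. In msx1a every high-Wnt library lay below every low-Wnt library, as in 789 of 14163 tested genes. The list's median was 0.45 without low-Wnt replicate 3, against 0.05 for all genes, and 0.70 with all libraries, against 0.51.

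The study's own skeletal marker list held 41 symbols and gave 45 tested genes. Its marker lists combined transcription factors from the single-cell timeline with markers that were already known. With all libraries 0 had a limma adjusted p under 0.05 and 8 were higher at an unadjusted p under 0.05 (11.7% of tested genes). Without low-Wnt replicate 3, 12 were higher (26.7%) and 1 lower, against 7.17% and 5.57% of all genes, and the median was 0.24, against 0.05 for all genes (0.71 against 0.51 with all libraries). The largest was the T-box gene TBX2 (ENSDARG00000006120), with 36.5, 42.4 and 40.9 TPM in high-Wnt cells, against 10.1, 13.2 and 2.72 TPM in low-Wnt cells (log2 fold change 1.71, limma adjusted p = 0.00188, against 2.29 and 0.121 with all libraries). The gene that was lower was snai2, a zinc finger factor of crest emigration, with 32.9, 51.2 and 44.0 TPM in high-Wnt cells, against 73.0, 80.6 and 2.57 TPM in low-Wnt cells (-0.85, limma adjusted p = 0.0297). With all libraries snai2 was at 0.63 (limma adjusted p = 0.765), so its direction rested on low-Wnt replicate 3. Of the 5 genes, barx1 alone is on this list.

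Markers of other cell types that a sox10:EGFP sort can hold also differed between the libraries. The notochord makes type II and type IX collagen in the embryo, and its markers summed to 48.8 to 55.1 TPM in high-Wnt cells, against 26.2 and 27.5 TPM in low-Wnt replicates 1 and 2 and 5.99 TPM in low-Wnt replicate 3. The list includes COL9A2, which is also on the cartilage list. Its gene noto overlapped between the groups, with 1.05, 2.37 and 2.61 TPM in high-Wnt cells, against 0, 1.59 and 0.17 TPM in low-Wnt cells. The log2 fold changes of noto, ntd5 and both genes listed as SHH were 0.50 to 0.86 without low-Wnt replicate 3. With all libraries they were 0.87 to 1.16, and none of these genes had a limma adjusted p under 0.05 in either fit. The defining notochord marker tbxta had 3.55, 4.43 and 6.0 TPM in high-Wnt cells and was listed at 0 in all 3 low-Wnt libraries. It passed the filter of 1 TPM through the high-Wnt libraries alone, so its direction was set by the filter. Its limma adjusted p, 0.0322 with all libraries and 0.00367 without low-Wnt replicate 3, is therefore not read as support. The otic list summed to 66.1 to 80.2 TPM in high-Wnt cells, against 111.8, 134.0 and 38.1 TPM in low-Wnt cells. Its marker oc90 had 32.9, 26.2 and 24.8 TPM in high-Wnt cells, against 59.2, 84.8 and 16.9 TPM in low-Wnt cells. The other otic genes did not all follow oc90. Without low-Wnt replicate 3, PAX2 (ENSDARG00000028148) was at a log2 fold change of 0.64 and EYA1 at -0.16, against 0.82 and 0.61 with all libraries. OTX1 was at -0.50 and otomp at -0.41 without that library, against -0.17 and -0.30 with all libraries. None of these had a limma adjusted p under 0.05 in either fit. oc90 itself was at -1.32 (limma adjusted p = 0.00814), against -0.65 (limma adjusted p = 0.590). The part of notochord and otic cells in the values of sox9a, col2a1a, col9a1b and the other cartilage matrix genes was not tested.

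The remaining marker lists were mostly higher in high-Wnt cells. Skeletal muscle markers summed to 1034 to 1727 TPM in high-Wnt cells, against 391.7 to 563.1 TPM in low-Wnt cells. Most of that sum was actc1b, at 1006.2 to 1686.9 TPM in high-Wnt cells, against 389.7 to 543.0 TPM in low-Wnt cells. TNNC1 overlapped between the groups, with 36.0, 20.9 and 21.4 TPM in high-Wnt cells, against 25.4, 1.99 and 19.0 TPM in low-Wnt cells. MYOD1 had 2.79, 6.14 and 3.89 TPM in high-Wnt cells, against 2.35, 0 and 0.55 TPM in low-Wnt cells. MYF5 had 1.71, 1.31 and 1.19 TPM in high-Wnt cells, against 0, 0 and 0.51 TPM in low-Wnt cells. MYF5 passed the filter of 1 TPM through the high-Wnt libraries alone, so its direction was set by the filter. Epidermis markers summed to 1091 to 1367 TPM in high-Wnt cells, against 206.0 to 631.7 TPM in low-Wnt cells. Most of the epidermis sum was the keratin gene krt4, at 816.1 to 1050.3 TPM in high-Wnt cells, against 52.6 to 386.3 TPM in low-Wnt cells. The other epidermis markers did not all follow it: TP63 was at -0.71 (limma adjusted p = 0.0283) without low-Wnt replicate 3, against 0.07 (limma adjusted p = 0.958) with all libraries, and epcam was at 0.08 without that library, against 0.12 with all libraries. Pigment markers summed to 1736 to 2048 TPM in high-Wnt cells and 379.0 to 1426 TPM in low-Wnt cells, and neural markers to 87.3 to 95.3 TPM in high-Wnt cells and 14.9 to 37.5 TPM in low-Wnt cells. Blood markers summed to 290.5 to 340.9 TPM in high-Wnt cells, against 184.0, 203.0 and 358.9 TPM in low-Wnt cells. They overlapped through low-Wnt replicate 3 alone. Most of the sum was hbae3, at 0.89 (limma adjusted p = 0.0111) without that library, against 0.51 (limma adjusted p = 0.518) with all libraries. SPI1 was at -0.25 and gata1a at 0.34 without it, against -0.18 and 0.58. Endothelium markers were near 0, at 1.44 to 1.78 TPM in high-Wnt cells and 0.10 to 1.51 TPM in low-Wnt cells. The NC list itself summed to 582.2 to 703.9 TPM in high-Wnt cells, against 473.4, 471.5 and 124.2 TPM in low-Wnt cells. Without low-Wnt replicate 3, 2 of its 5 genes were higher at a limma adjusted p under 0.05 (7.17% of all genes). sox10 and snai1b overlapped between the groups. They were at 0.25 (limma adjusted p = 0.330) and -0.22 (limma adjusted p = 0.640) in that fit, against 0.83 and 0.02 with all libraries. In such bulk samples fewer cells of a type and less RNA per cell cannot be told apart, and the part of these cell types in the results was not tested.

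Across the 6 libraries, the genes closest in pattern to each of the 5 were found by the root mean square difference of centred log2(TPM + 1) values among 8654 genes with a mean of at least 5 TPM. For twist1a the closest was polr3glb, a subunit gene of RNA polymerase III (0.0751). It shared the high value of low-Wnt replicate 3, with 26.6, 35.5 and 35.8 TPM in high-Wnt cells, against 19.9, 18.1 and 30.7 TPM in low-Wnt cells. For twist1b they were the histone gene hist1h4l (0.0998) and si:dkey-271j15.3 (0.142), for sox9a NCKAP1 (0.0915), a regulator of actin, and the tetraspanin gene tspan4b (0.0917), and for barx1 the paraoxonase gene pon3.2 (0.0401) and ZBTB2 (0.0677), a zinc finger gene. For col2a1a they were TFAP2C (0.109) and snai1a (0.134), both transcription factor genes of the early crest, and snai1a had 140.5, 99.0 and 94.1 TPM in high-Wnt cells, against 58.0, 43.5 and 11.4 TPM in low-Wnt cells. Between the 5 genes themselves the differences ran from 0.347 for twist1b and barx1 to 1.23 for twist1a and col2a1a. They could not be smaller than those of the closest genes, which were picked for the smallest difference. These are descriptions over 6 libraries, among which the shift of low-Wnt replicate 3 touches most genes.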

How the data were processed

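Bulk RNA-seq of FACS-sorted NC cells (3 high-Wnt and 3 low-Wnt libraries, grouped by their labels) was analysed from the TPM table that the authors deposited. Per the study's methods and the submitters' processing notes, reads were mapped to GRCz11 and quantified with STAR 2.5.2a and RSEM 1.2.31. The authors tested counts with edgeR, and since TPM are not counts, limma 3.58.1 (R 4.3.3) was used here on log2(TPM + 1) with a variance trend, Benjamini-Hochberg adjustment and a threshold of 0.05. Fold changes are on that scale, which understates the change of low genes. Genes needed 1 TPM in at least 3 libraries, or in 2 where a library was left out. Read depth cannot be read from TPM, so no counting error is given, and a listed 0 may be a failed estimate. Smart-seq2 as usually run does not keep strand, so reads of overlapping antisense genes cannot be told apart. Single values were compared by two-sided exact permutation tests. The fit was tested on simulated data with 200 changed genes. These data held no library shifted like low-Wnt replicate 3, so the test does not cover that shift.

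Of 32057 identifiers, 28988 were paired with a symbol. Some zebrafish genes carry human-style symbols, under which paralogs were not told apart. The names sox9a, barx1 and col2a1a follow the identifiers given with the gene set. All 5 genes are named, with the 2 genes closest in pattern to each, of which 1 is not reported here. The gene lists (Twist family, chondrogenic regulators, cartilage matrix, ectomesenchyme, the study's skeletal markers) and the marker lists (NC, otic, notochord, skeletal muscle, epidermis, neural, endothelium, blood, pigment) are described by counts and medians, or summed TPM, with no set test, and the genes named from the lists were chosen after their values were seen. The 5 genes and the lists were chosen with earlier results of these data known. Alternatives changed the pseudocount, the filter, the normalization, the variance model, library weights, the replicate block and the libraries. The study's single-cell data were not analysed here.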

Additional observations from a re-analysis of the deposited data

How the results depend on the processing

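The number of genes called by limma over all genes depended strongly on the setting. With all 6 libraries it was 52. It was 17 with a pseudocount of 0.1, 4 with no filter on low values, 13 with a filter on a mean of 5 TPM, 13 with no variance trend, 177 after quantile normalization and 4128 with library quality weights, where low-Wnt replicate 3 had a weight of 0.037. Leaving out 1 library gave 0 to 1912 genes: 1912 without low-Wnt replicate 3 and 0 without any other library, where 1003 to 2962 genes had an unadjusted p under 0.05. In 2 alternatives chosen after seeing the data, leaving out low-Wnt replicate 3 gave 1838 genes together with quantile normalization and 2146 together with median centring.

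For each of the 5 genes, 12 of 14 other settings left the limma adjusted p above 0.05, and none turned the direction. The exceptions were the fit without low-Wnt replicate 3 and the fit with library quality weights, whose log2 fold changes were 1.00 for twist1a, 1.21 for twist1b, 0.85 for sox9a, 0.57 for barx1 and 1.45 for col2a1a. Leaving out each library gave log2 fold changes of 0.44 to 0.89 for twist1a, 1.13 to 1.47 for twist1b, 1.02 to 1.68 for sox9a, 0.58 to 0.79 for barx1 and 1.32 to 2.51 for col2a1a. Without low-Wnt replicate 3, quantile normalization gave 0.93, 1.41, 1.11, 0.73 and 1.29 for the genes in that order, all with an adjusted p under 0.05. Median centring gave 0.83, 1.35, 0.96 and 1.26 for twist1a, twist1b, sox9a and col2a1a, also under 0.05. The high-Wnt minus low-Wnt differences in the twist1a to twist1b and the sox9a to col2a1a log2 ratio stayed negative in every alternative run on them, at -1.03 to -0.52 and -1.16 to -0.30 when 1 library was left out, and the twist1a share differed by -3.99 to -2.30 percentage points.

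High-Wnt and low-Wnt libraries share the replicate numbers 1 to 3. Deviations of same-numbered libraries from their group means correlated at 0.032, -0.0086 and 0.14, and those of differently numbered libraries at -0.11 to 0.088. With 3 libraries per group these values cannot decide whether the numbers pair the libraries. The labels do not say so either, and the main fit did not pair them. A fit with the replicate number as a block called 168 genes, and gave adjusted p-values of 0.441 for twist1a, 0.313 for twist1b, 0.216 for sox9a, 0.543 for barx1 and 0.185 for col2a1a in limma. Because TPM hold no depth, counting error could not be told apart from the spread between libraries, and with 2 low-Wnt libraries left the spread of that group rests on few values.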
